A study of Arabidopsis thaliana with 4 samples.

Results

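Nuclear genes for the subunits of the photosystems, of the electron carriers between and after them, and of the chloroplast ATP synthase were compared in whole Arabidopsis thaliana seedlings given glutamine for 0.5 h and at 0 h. The members were chosen by locus identifier from their known function, without the antenna genes, and all 37 were found among the 33602 genes of the table. The groups were Gln_0.5hr, 14-day-old seedlings of the Columbia (Col) ecotype moved to 1/2 MS (-N) medium with 2.5 mM Gln for 0.5 h, and Gln_0hr, the same seedlings on 1/2 MS (-N) medium without Gln, with 2 libraries each. Seedlings of both groups had been raised hydroponically without nitrogen at 22 °C, with days of 16 h light and nights of 8 h. The study asks which genes respond early to glutamine. Glutamine, transfer and elapsed time cannot be told apart here, since no library of seedlings transferred without glutamine was among those analysed. The labels do not state that the libraries came from separate cultures, so p-values measure the spread between these libraries only.

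In the thylakoid membrane, photosystem II takes electrons from water, and the cytochrome b6f complex passes them to plastocyanin. Photosystem I then raises them to ferredoxin, from which ferredoxin-NADP reductase makes NADPH, while ATP synthase uses the proton gradient built on the way. The reaction-centre cores of the photosystems are coded in the plastid. Each complex is a mosaic of subunits coded there and of imported subunits coded in the nucleus. In seedlings these nuclear genes are among the most strongly transcribed in green tissue.

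Reads in genes, recovered from the deposited values, numbered 26075046 and 20429739 at 0.5 h and 26069134 and 27203584 at 0 h. The 37 genes held 2.65% and 2.95% of them at 0.5 h, against 3.73% and 3.84% at 0 h (Wilson 95% intervals 2.65 to 2.66%, 2.94 to 2.96%, 3.72 to 3.74% and 3.83 to 3.84%). Each gene had between 1777 and 125722 reads in a library, so counting error was small beside the spread between libraries. The intervals cover counting error only, since reads are not independent molecules. One library stood apart: the 2nd at 0.5 h had 0.379% of its reads in chloroplast genes, against 0.0848% in the 1st at 0.5 h and 0.0974% and 0.0569% at 0 h. In that library 35 of the 37 genes were higher than in the 1st at 0.5 h, by a median of 0.23 on the log2 scale. Of all 18039 tested genes 53.3% were higher in it, with a median gap of 0.02. At 0 h the 2nd library was higher than the 1st for 18 of the 37, and for 42.9% of all tested genes. The part of the 2nd library at 0.5 h in the results was not tested, and values without it are given below.

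Markers of both organs were present in the libraries of whole seedlings. The summed level of 5 shoot markers was 9072 and 9844 RPKM at 0.5 h and 9388 and 9870.0 RPKM at 0 h. RBCS1A, a RuBisCO small subunit gene, had the highest level, 7605 and 8092 RPKM at 0.5 h and 7681 and 7963 RPKM at 0 h. The next by mean, RCA, for RuBisCO activase, had 618 and 657 RPKM at 0.5 h and 862 and 984 RPKM at 0 h (limma adjusted p = 0.089). The sum of 10 root markers was 222 and 200.4 RPKM at 0.5 h and 192 and 329 RPKM at 0 h, most of it from PYK10, a beta-glucosidase gene, at 165 and 166 RPKM and at 158 and 273 RPKM. The next among root markers by mean was CASP1, of the endodermis, at 13.1 and 8.64 RPKM at 0.5 h and 7.69 and 15.9 RPKM at 0 h. EXPA7 and COBL9, of root hairs, averaged less than 1 RPKM. None of the 5 shoot markers and none of the 8 root markers tested passed the test below.

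Most genes of photosystem I and some of the water-splitting side of photosystem II fell at 0.5 h, and no gene of the electron carriers or of ATP synthase was called in either direction. Levels were read as RPKM (reads per kilobase of gene length, scaled to library size), a unit inferred from the values, and per the name of the authors' table were scaled with TMM, a trimmed mean that equalises libraries. Those averaging 1 RPKM or more over the 4 libraries were tested with limma on log2(RPKM + 1), and a gene was called at a Benjamini-Hochberg adjusted p below 0.05 over all tested genes. All 37 genes were tested. Of these 11 were called lower and 0 higher, where 5.11% of the 18039 tested genes were called lower and 6.71% higher. At an unadjusted limma p below 0.05, 19 were lower and 0 higher. The share of all tested genes at that threshold was not computed, so these counts have no background to be read against. The median log2 fold change (0.5 h over 0 h) was -0.46 over the 37 genes, against -0.03 over all tested genes. Both 0.5 h values lay below both 0 h values in 29 of the 37, against 32.6% of tested genes, and above them in 2, against 27.1%. In whole seedlings, fewer cells of a type and less RNA per cell cannot be told apart.

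The called genes were 9 of the 12 of photosystem I and 2 of the 6 of the water-splitting side of photosystem II. None of the other 7 photosystem II genes, 7 carrier genes, 3 ATP synthase genes and 2 genes of cyclic electron flow was called. Summed over the 12 photosystem I genes, the level was 11086 ± 519 RPKM at 0.5 h, against 19852 ± 1020.1 RPKM at 0 h (SD, n = 2 each). For the 6 water-splitting genes the sums were 9213 ± 663 RPKM and 12986 ± 719 RPKM. For the 7 carrier genes the sums were 5135 ± 959 RPKM at 0.5 h and 5175 ± 92.8 RPKM at 0 h. The mean at 0.5 h, 99.2% of that at 0 h, averages libraries of 4457 and 5813 RPKM, on either side of 5109 and 5240 RPKM at 0 h. The carriers' median log2 fold change was -0.25 without the 2nd library at 0.5 h and 0.15 without the 1st. Whether the carriers stayed level is thus not settled. The difference between these sets was not tested. Without the minimum on mean RPKM none of the 37 genes, and 2 of the whole table, were called. With 1 library fewer, the number called lower was 1 without the 1st at 0.5 h, 2 without the 2nd at 0.5 h, 7 without the 1st at 0 h and 9 without the 2nd at 0 h. Of the 11 genes, PSAD2 kept its call on leaving out any 1 library, and the other 10 lost it without either library at 0.5 h (limma adjusted p = 0.063 to 0.18). PSAD1 and PSAL also lost it without the 1st at 0 h, and PSAH2 and PSAN without either library at 0 h. In each of those fits the log2 fold change of all 12 photosystem I genes stayed below 0, with a median between -0.93 and -0.75.

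**Figure D1:**
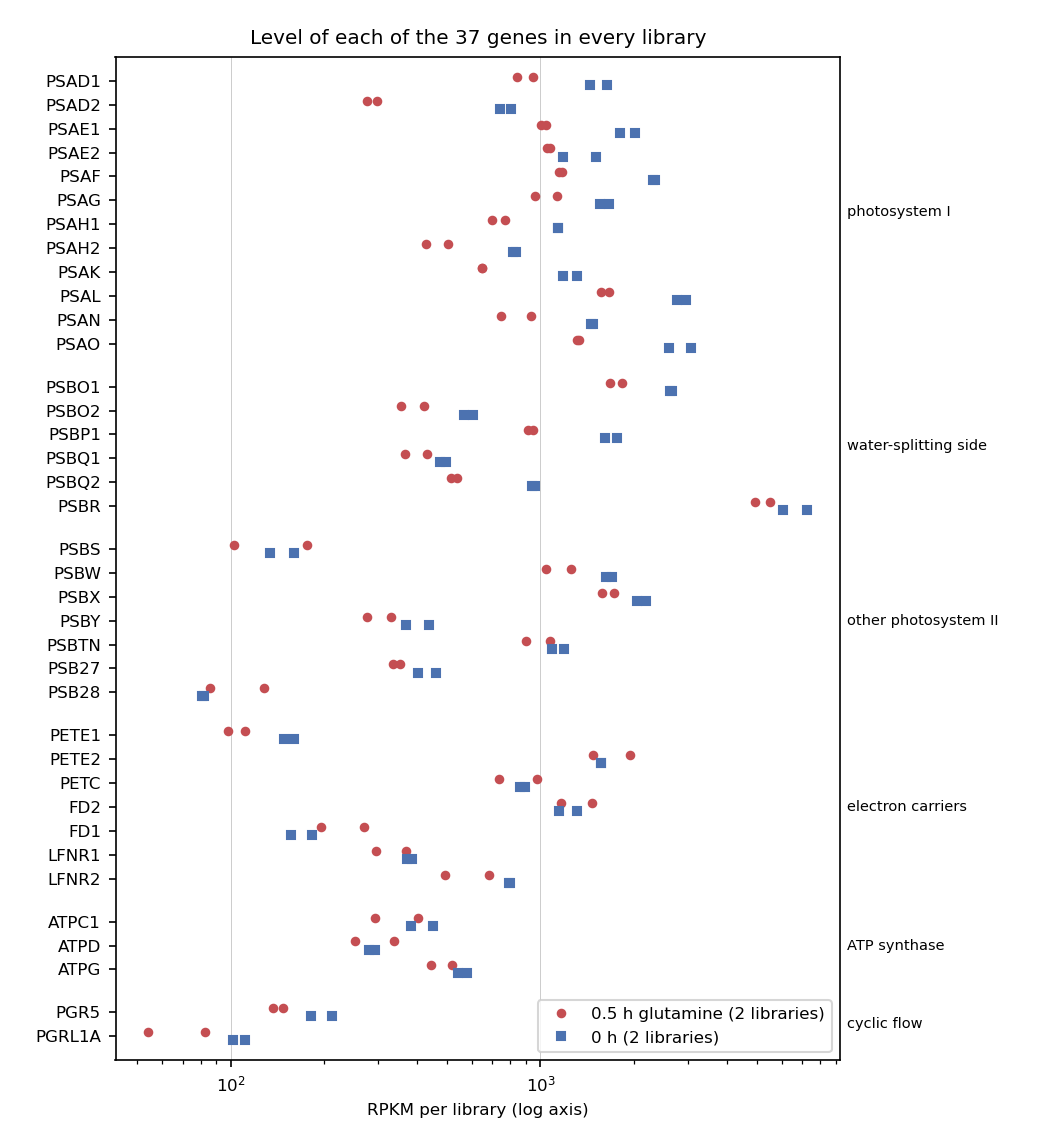
Level of each of the 37 genes in RPKM (log axis) in the 2 libraries at 0.5 h (red circles) and the 2 at 0 h (blue squares), grouped by role. All 12 photosystem I genes have both red points left of both blue points, an order found in 32.6% of all tested genes. Points of most carrier and ATP synthase genes mix or lie close.

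The sequences around the annotated start are shown for the 2 genes with the largest falls, PSAD2 and PSAO, and for the gene with the highest level, PSBR. Each window runs from 250 bases before to 30 bases after the start of the gene in RefSeq's TAIR10.1 annotation and was read from the TAIR10.1 assembly. The deposited table names no coordinates. Capitals mark matches to the motifs searched.
PSAD2, chr1:754233-754512, minus strand: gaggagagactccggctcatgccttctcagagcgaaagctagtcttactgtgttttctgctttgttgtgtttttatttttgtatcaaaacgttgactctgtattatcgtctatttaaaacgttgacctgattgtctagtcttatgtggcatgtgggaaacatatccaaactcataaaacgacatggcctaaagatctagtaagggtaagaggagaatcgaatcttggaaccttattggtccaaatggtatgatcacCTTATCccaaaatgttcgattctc
PSAO, chr1:2641905-2642184, minus strand: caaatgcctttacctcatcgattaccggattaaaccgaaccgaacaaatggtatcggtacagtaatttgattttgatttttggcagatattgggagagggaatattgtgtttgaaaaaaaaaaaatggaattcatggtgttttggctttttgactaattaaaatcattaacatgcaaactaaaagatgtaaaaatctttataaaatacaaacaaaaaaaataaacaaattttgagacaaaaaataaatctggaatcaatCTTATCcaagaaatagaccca
PSBR, chr1:29735702-29735981, plus strand: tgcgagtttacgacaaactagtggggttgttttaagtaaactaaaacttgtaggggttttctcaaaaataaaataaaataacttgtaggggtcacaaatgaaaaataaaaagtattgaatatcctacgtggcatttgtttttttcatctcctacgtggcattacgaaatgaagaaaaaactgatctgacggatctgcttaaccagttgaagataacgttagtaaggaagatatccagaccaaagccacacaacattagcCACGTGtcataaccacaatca
PSAD2 and PSAO each held GATAAG, the core bound by GATA factors, on the strand opposite to the gene (printed as CTTATC), starting at position 7 and 10 counted from the annotated start. PSBR held CACGTG, the G-box bound by bZIP and bHLH factors, starting at position 10.

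Each motif was searched on both strands and counted by itself. CACGTG reads the same on both strands, and motifs that lie side by side can share bases at their ends. GATAAG was found in the windows of 17 of the 37 genes (45.9%), against 13.8% of the windows of 27443 protein-coding genes. CACGTG was found in 11 of the 37 (29.7%), against 7.24% of all windows. Among the 11 called genes 8 held GATAAG and 3 held CACGTG, and among the other 26 genes 9 and 8 did. CCAATC was found in 6 of the 37 (16.2%, against 11.6% of all windows). AGATTCT was in 4 (10.8%, against 7.06%), and AAAATATCT, the evening element of clock-controlled genes, in 1 (2.70%, against 2.66%). These matches describe the letters in the window and are no evidence that a factor was bound.

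On the stromal side of photosystem I, PsaD and PsaE form the ridge on which ferredoxin docks, and each is coded by a pair of genes. PSAD2 (AT1G03130) had 297 and 276 RPKM at 0.5 h, against 804 and 739 RPKM at 0 h. Both values at 0.5 h were far below those at 0 h, and the log2 fold change was -1.43 ± 0.16 (SE; limma adjusted p = 0.0054), the largest fall among the 37 genes. PSAD2 was called on leaving out any 1 of the 4 libraries. Its partner PSAD1 (AT4G02770) had 837 and 943 RPKM at 0.5 h, against 1641 and 1444 RPKM at 0 h (-0.79 ± 0.18, limma adjusted p = 0.034, and 0.085 without the 1st library at 0 h). PSAE1 (AT4G28750) fell to 1007 and 1039 RPKM at 0.5 h, against 2017 and 1806 RPKM at 0 h (-0.90 ± 0.17, limma adjusted p = 0.022). PSAE2 (AT2G20260) had 1046 and 1072 RPKM at 0.5 h, against 1507 and 1181 RPKM at 0 h. The groups of PSAE2 did not overlap, yet the gap was small beside the spread at 0 h and it was not called (-0.33, 95% confidence interval -0.78 to 0.11). Up to 0.123 of the reads of PSAE2 were multi-mapped.

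On the lumenal side, where plastocyanin delivers electrons, PsaF forms the docking site and PsaN lies beside it. PSAF (AT1G31330) had 1147 and 1169.8 RPKM at 0.5 h, against 2313 and 2337 RPKM at 0 h (SE of the log2 fold change 0.17, limma adjusted p = 0.015). The libraries of each time were nearly equal for PSAF, and the mean at 0.5 h was 49.8% of that at 0 h. PSAN (AT5G64040) fell to 747 and 935 RPKM, against 1456 and 1474 RPKM at 0 h (-0.81 ± 0.18, limma adjusted p = 0.036). Its call also ended with quantile normalization (adjusted p = 0.051) and on leaving out any 1 of the 4 libraries (0.070 to 0.16).

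PsaG and PsaK are membrane subunits at opposite flanks of the complex. PSAK (AT1G30380) had 648 RPKM in both libraries at 0.5 h, against 1313 and 1180.0 RPKM at 0 h (-0.94 ± 0.16, limma adjusted p = 0.017). PSAG (AT1G55670) had 963 and 1129 RPKM at 0.5 h, against 1558 and 1663 RPKM at 0 h. For PSAG the groups were apart as well, but it missed the threshold (-0.63 ± 0.18, limma adjusted p = 0.068). It was called with a minimum of 5 RPKM, without the intensity trend and by limma-voom on recovered reads (adjusted p = 0.035 to 0.046).

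PsaH, PsaL and PsaO make up the side where antenna of photosystem II can dock during state transitions, the shift of light-harvesting complexes between the photosystems. PSAO (AT1G08380) had 1331 and 1311 RPKM at 0.5 h, against 3060.0 and 2589.8 RPKM at 0 h (-1.09 ± 0.18, limma adjusted p = 0.015). The 0.5 h libraries differed little from each other, and the mean was 46.8% of that at 0 h. PSAL (AT4G12800) fell to 1571 and 1658 RPKM, against 2949 and 2748 RPKM at 0 h (-0.82 ± 0.17, limma adjusted p = 0.030). Its call also ended with quantile normalization (adjusted p = 0.072) and on leaving out either library at 0.5 h or the 1st at 0 h (0.060 to 0.18). PSAH2 (AT1G52230) fell to 429 and 502 RPKM, against 814 and 831 RPKM at 0 h (-0.83 ± 0.17, limma adjusted p = 0.026). Its call ended on leaving out any 1 of the 4 libraries (adjusted p = 0.056 to 0.11). PSAH1 (AT3G16140) had 696 and 769 RPKM at 0.5 h, against 1142 and 1137 RPKM at 0 h, and lay just outside the threshold (-0.64 ± 0.16, limma adjusted p = 0.051). It was called under 6 of the alternatives (adjusted p = 0.025 to 0.048). Its share of multi-mapped reads reached 0.537, so its level is uncertain.

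**Figure D2:**
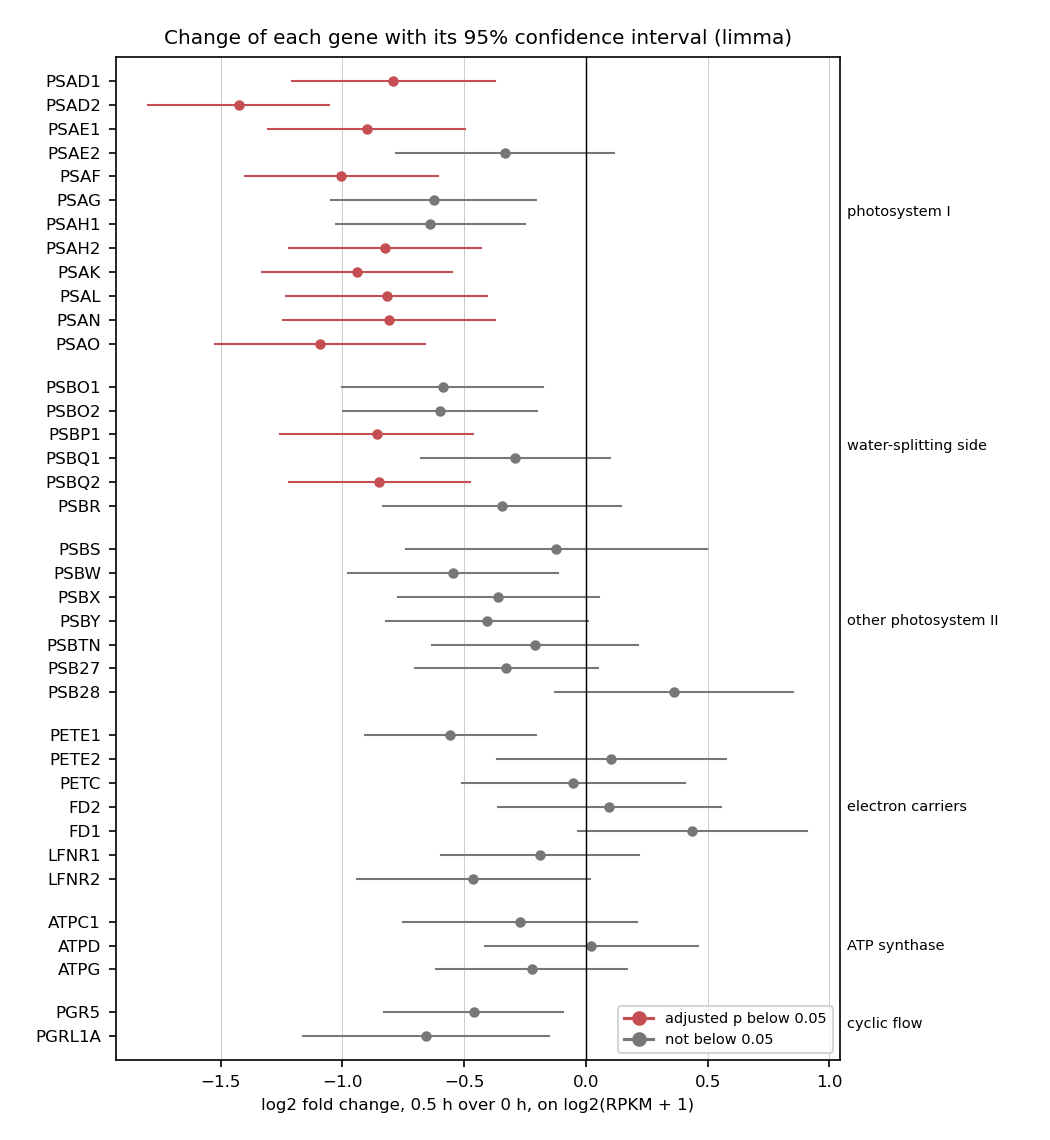
Log2 fold change (0.5 h over 0 h, on log2(RPKM + 1)) of each of the 37 genes as a point with its limma 95% confidence interval as a line, in red where the adjusted p was below 0.05. The 9 red photosystem I genes lie between -1.43 and -0.79, and no gene among the electron carriers, ATP synthase or cyclic flow is red.

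On the water-splitting side of photosystem II, PsbO, PsbP and PsbQ shield the manganese cluster that oxidises water, and PsbR helps to hold them in place. PSBP1 (AT1G06680) had 911 and 945 RPKM at 0.5 h, against 1610.4 and 1759 RPKM at 0 h (-0.86 ± 0.17, limma adjusted p = 0.023). PSBQ2 (AT4G05180) fell to 515 and 539.6 RPKM, against 942 and 957 RPKM at 0 h (-0.85 ± 0.16, limma adjusted p = 0.020). Both were about as far below 0 h as the photosystem I genes. PSBO1 (AT5G66570) had 1679.9 and 1832 RPKM at 0.5 h and 2654 and 2621 RPKM at 0 h (-0.59 ± 0.17, limma adjusted p = 0.077). PSBO2 (AT3G50820) had 354 and 421 RPKM at 0.5 h and 565 and 606 RPKM at 0 h (-0.60 ± 0.17, limma adjusted p = 0.066). For both PsbO genes the groups did not overlap, and both were called by limma-voom on recovered reads (adjusted p = 0.039 and 0.040). PSBO1 was also called with a minimum of 5 RPKM and without the intensity trend (adjusted p = 0.042 and 0.043). PSBQ1 (AT4G21280) had 366 and 429.8 RPKM at 0.5 h and 475 and 496 RPKM at 0 h (95% confidence interval of the log2 fold change -0.68 to 0.10). PSBR (AT1G79040), with the highest level of the 37 genes, had 4918 and 5515 RPKM at 0.5 h and 7247 and 6038 RPKM at 0 h (-0.83 to 0.14). In all 6 genes both 0.5 h values lay below both 0 h values, as they did in 32.6% of all tested genes.

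The other 7 photosystem II genes spanned log2 fold changes from -0.55 to 0.36, with a median of -0.33, and none was called. PSBW (AT2G30570), for a small subunit that steadies the complex with its antenna, had 1038 and 1254 RPKM at 0.5 h and 1706 and 1628 RPKM at 0 h (-0.55 ± 0.18, limma adjusted p = 0.10). The small membrane subunit genes PSBX (AT2G06520) and PSBY (AT1G67740) had means of 78.0% and 75.4% of those at 0 h. PSBTN (AT3G21055), for a small lumenal subunit, was at 86.6%. PSB27 (AT1G03600), for a lumenal factor of assembly and repair, was at 79.6%. In these 5 genes both 0.5 h values were the lower ones, as in 32.6% of all tested genes. PSBS (AT1G44575), for the sensor of lumen acidity in heat dissipation, had 103 and 176 RPKM at 0.5 h, which span its 134 and 160.0 RPKM at 0 h. PSB28 (AT4G28660), for an assembly factor, had 85.8 and 129 RPKM at 0.5 h, against 82.3 and 80.7 RPKM at 0 h (0.36, 95% confidence interval -0.13 to 0.85). PSB28 was 1 of the 2 genes with both 0.5 h values above both 0 h values, an order found in 27.1% of all tested genes.

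Among the electron carriers the fold changes had both signs and none was called. Plastocyanin, the copper protein that feeds photosystem I, is coded by PETE1 and PETE2. PETE2 (AT1G20340), the more abundant, had 1473 and 1943 RPKM at 0.5 h, on either side of its 1573 RPKM in both libraries at 0 h (0.11, 95% confidence interval -0.37 to 0.58). PETE1 (AT1G76100) had 97.8 and 111 RPKM at 0.5 h, against 159.8 and 148 RPKM at 0 h (-0.56 ± 0.15, limma adjusted p = 0.057). PETE1 was called by limma-voom and when genes with over 0.05 of multi-mapped reads were left out (adjusted p = 0.036 and 0.048). PETC (AT4G03280), for the Rieske iron-sulfur protein of cytochrome b6f, had 735 and 972 RPKM at 0.5 h and 891 and 862 RPKM at 0 h, with overlapping groups (-0.51 to 0.41).

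Neither gene for the leaf ferredoxins, which accept electrons from photosystem I, was called, and both had a positive fold change that for FD2 changed sign without the 1st library at 0 h or the 2nd at 0.5 h. FD2 (AT1G60950), the main leaf form, had 1169 and 1466 RPKM at 0.5 h and 1145 and 1309.5 RPKM at 0 h, with overlapping groups (0.10, 95% confidence interval -0.36 to 0.55). FD1 (AT1G10960) had 196 and 270.3 RPKM at 0.5 h, against 157 and 183 RPKM at 0 h, and was the other gene with both 0.5 h values on top (0.44, -0.03 to 0.91; limma adjusted p = 0.20). Of the leaf ferredoxin-NADP reductases, LFNR1 (AT5G66190) had 295 and 369 RPKM at 0.5 h and 384 and 370.2 RPKM at 0 h. The gap between the groups of LFNR1 was under 1 RPKM, and up to 0.128 of its reads were multi-mapped. LFNR2 (AT1G20020) had 491 and 681 RPKM at 0.5 h and 799 and 794 RPKM at 0 h (-0.46 ± 0.20, limma adjusted p = 0.19). For all 7 carrier genes the 2nd library at 0.5 h, the one rich in chloroplast reads, was the higher of its pair. This does not set the carriers apart, since it held for 35 of the 37 genes.

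None of the 3 ATP synthase genes was called. ATPC1 (AT4G04640), for the rotating gamma subunit that carries the redox switch, had 293 and 404 RPKM at 0.5 h and 383 and 449 RPKM at 0 h. ATPD (AT4G09650), for the delta subunit of the stator, had 252 and 337 RPKM at 0.5 h and 280.1 and 293 RPKM at 0 h. ATPG (AT4G32260), for a membrane stator subunit, had 442 and 518 RPKM at 0.5 h and 541 and 578 RPKM at 0 h. Groups of ATPC1 and ATPD overlapped. Those of ATPG did not, with both 0.5 h values the lower ones, as in 32.6% of all tested genes. The log2 fold changes of the 3 genes ran from -0.27 to 0.02. The widest of their intervals, that of ATPC1, ran from -0.75 to 0.21.

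PGR5 and PGRL1A act in cyclic electron flow around photosystem I, which adds to the proton gradient without making NADPH. PGR5 (AT2G05620) had 138 and 148 RPKM at 0.5 h, against 213 and 181 RPKM at 0 h (-0.46 ± 0.15, limma adjusted p = 0.11). PGRL1A (AT4G22890) had 54.3 and 82.9 RPKM at 0.5 h, against 102 and 111 RPKM at 0 h (-0.66 ± 0.21, limma adjusted p = 0.097), and was called on leaving out the higher library at 0.5 h (-0.96, adjusted p = 0.047). Their groups did not overlap, with both 0.5 h values the lower ones, as in 32.6% of all tested genes.

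Where 2 genes code for 1 protein, the share of each could be followed within a library, a measure that no scaling factor between libraries touches. In 7 of the 8 pairs the shares at 0.5 h and 0 h did not overlap. For single genes, groups without overlap were common, at 32.6% of all tested genes lower and 27.1% higher, so the count says little about the pairs. PSAD1 gave 73.8% and 77.4% of the pair's summed level at 0.5 h, against 67.1% and 66.1% at 0 h. PSAE1 gave 49.0% and 49.2% at 0.5 h, against 57.2% and 60.5% at 0 h, so PSAE2 overtook it at 0.5 h. PSBQ1 gave 41.5% and 44.3% at 0.5 h, against 33.5% and 34.1% at 0 h. The widest shift on the log2 scale was that of PETE1 to PETE2, with a log2 ratio of -3.91 and -4.13 at 0.5 h, against -3.30 and -3.41 at 0 h. PSAH1 gave 61.9% and 60.5% against 58.4% and 57.8%, FD1 14.3% and 15.6% against 12.1% and 12.3%, and LFNR1 37.6% and 35.2% against 32.5% and 31.8%. The exception was PSBO1, whose groups overlapped, with 82.6% and 81.3% at 0.5 h and 82.4% and 81.2% at 0 h. These shifts were not tested and are given as values. The pairs with PSAE2, PSAH1 and LFNR1 hold a gene whose share of multi-mapped reads exceeded 0.05.

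**Figure D3:**
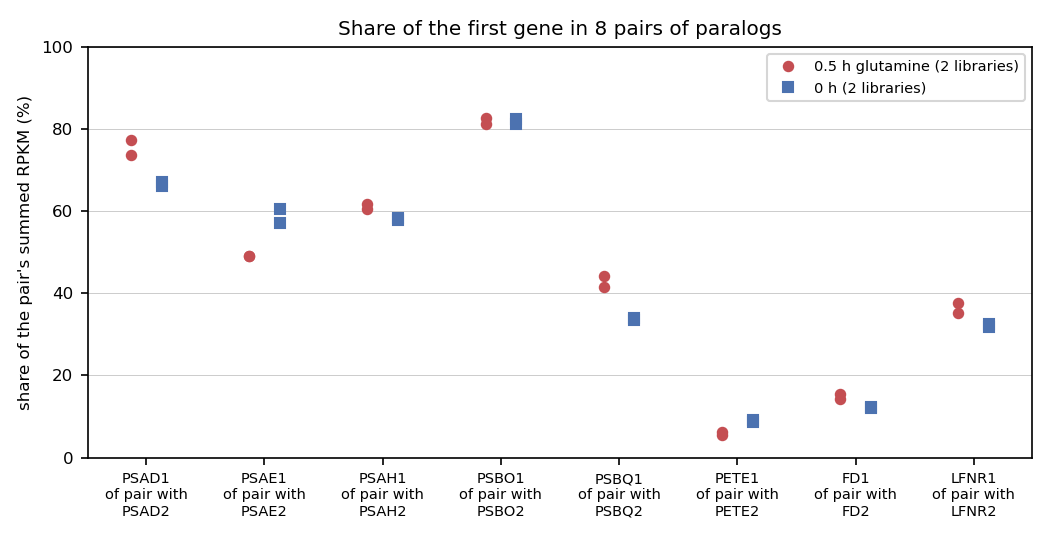
Share of the first gene in the summed RPKM of each of 8 pairs of paralogs (percent), with the 2 libraries at 0.5 h as red circles and the 2 at 0 h as blue squares. The points of PSBO1 coincide between the times at 81.2 to 82.6%, and those of PSAD1 lie higher and those of PSAE1 lower at 0.5 h.

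Other genes of photosynthesis were grouped in 6 lists, to be read beside the 5.11% of all tested genes called lower and 6.71% called higher. Of 21 genes for light-harvesting antenna proteins 14 were called lower and 0 higher, with a median log2 fold change of -1.29. LHCB4.2, for a minor antenna of photosystem II, had 160.3 and 137 RPKM at 0.5 h, against 453 and 523 RPKM at 0 h (-1.71 ± 0.17, limma adjusted p = 0.0047). LHCB1.1, of the major trimeric antenna, had 73.3 and 43.1 RPKM against 323 and 379 RPKM (-2.62 ± 0.25), with up to 0.226 of its reads multi-mapped. Of the 32 plastid-encoded subunits of the same complexes, 20 reached the 1 RPKM minimum and none was called, and their summed level was 126 and 443 RPKM at 0.5 h, against 155 and 139 RPKM at 0 h. The high value was that of the library rich in chloroplast reads. Chloroplast genes held only 0.0569 to 0.379% of the reads of a library. Whether their RPKM follows the levels of plastid transcripts was not tested. The 2 plastid genes with the smallest p were psbN, at 2.37 and 12.7 RPKM against 0.786 and 0.706 RPKM, and psbM, at 6.49 and 3.46 RPKM against 10.5 and 6.92 RPKM.

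Where 5.11% of all tested genes were called lower, 2 of 23 genes for assembly and repair of the complexes fell and 0 rose (median -0.14). These were LQY1, for a factor of photosystem II repair, at 79.4 and 97.2 RPKM against 144 and 139.9 RPKM (-0.68 ± 0.16, limma adjusted p = 0.037), and HCF173, needed to translate the D1 protein, at 28.4 and 34.3 RPKM against 45.7 and 49.2 RPKM (-0.59 ± 0.15, limma adjusted p = 0.049). None of the 17 tested genes of the NDH complex, which also serves cyclic flow, was called (median 0.18). Their summed level was 799 and 1141 RPKM at 0.5 h, on either side of 887 and 841 RPKM at 0 h. The higher value was that of the library rich in chloroplast reads. The NDH genes with the smallest p were NDHS, at 61.9 and 71.5 RPKM against 100.3 and 93.0 RPKM, and PNSL3, at 18.9 and 36.0 RPKM against 12.8 and 14.8 RPKM.

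Of the 19 remaining nuclear genes of electron transport, 2 fell, 3 rose and 14 were not called (median -0.06). Over all tested genes 5.11% were called lower and 6.71% higher. STN7, the kinase of state transitions, fell to 29.0 and 32.5 RPKM, against 65.0 and 54.9 RPKM at 0 h (-0.94 ± 0.15, limma adjusted p = 0.013). PGRL1B, the close copy of PGRL1A, fell as well (-0.58 ± 0.13, limma adjusted p = 0.037). The 3 that rose code for the root-type chain that carries electrons from NADPH to ferredoxin in non-green plastids. They were RFNR1, at 38.7 and 39.6 RPKM against 18.3 and 21.9 RPKM (0.93 ± 0.14), RFNR2 (1.21 ± 0.25) and FD3 (0.91 ± 0.18). FD3, the root-type ferredoxin, had 502 and 500.0 RPKM at 0.5 h, against 233 and 304 RPKM at 0 h (limma adjusted p = 0.025). Beside them the leaf forms FD1, FD2, LFNR1 and LFNR2 had log2 fold changes from -0.46 to 0.44 and none was called; the difference between root and leaf forms was not tested. PGRL1B, RFNR2 and FD3 were named after their values were seen.

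Of 19 genes for regulators of photosynthesis genes 7 fell and 3 rose (median -0.33), where 5.11% of all tested genes were called lower and 6.71% higher. GNL, for a GATA factor, had 100.3 and 134 RPKM at 0.5 h, against 25.4 and 23.8 RPKM at 0 h (2.19 ± 0.17, limma adjusted p = 0.0047). HYH, for a bZIP factor akin to HY5, had 44.3 and 50.001 RPKM against 17.8 and 16.0 RPKM (1.43 ± 0.14, limma adjusted p = 0.0047). GNC, also a GATA factor, was the other gene that rose (1.14 ± 0.13, limma adjusted p = 0.0057). The genes that fell were GUN5 (-1.29 ± 0.18) and GUN4 (-0.88 ± 0.17), both of chlorophyll synthesis, SIG5 (-1.02 ± 0.16) and SIG1 (-0.88 ± 0.13), for sigma factors of the plastid polymerase, PIF4 (-0.92 ± 0.20) and PIF1 (-0.59 ± 0.13), for phytochrome-interacting factors, and GLK2 (-0.81 ± 0.16), for an activator of photosynthesis genes. Their limma adjusted p ran from 0.0087 for GUN5 to 0.035 for PIF1, and up to 0.393 of the reads of PIF1 were multi-mapped. GNC and the genes that fell are named after their values were seen.

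**Figure D4:**
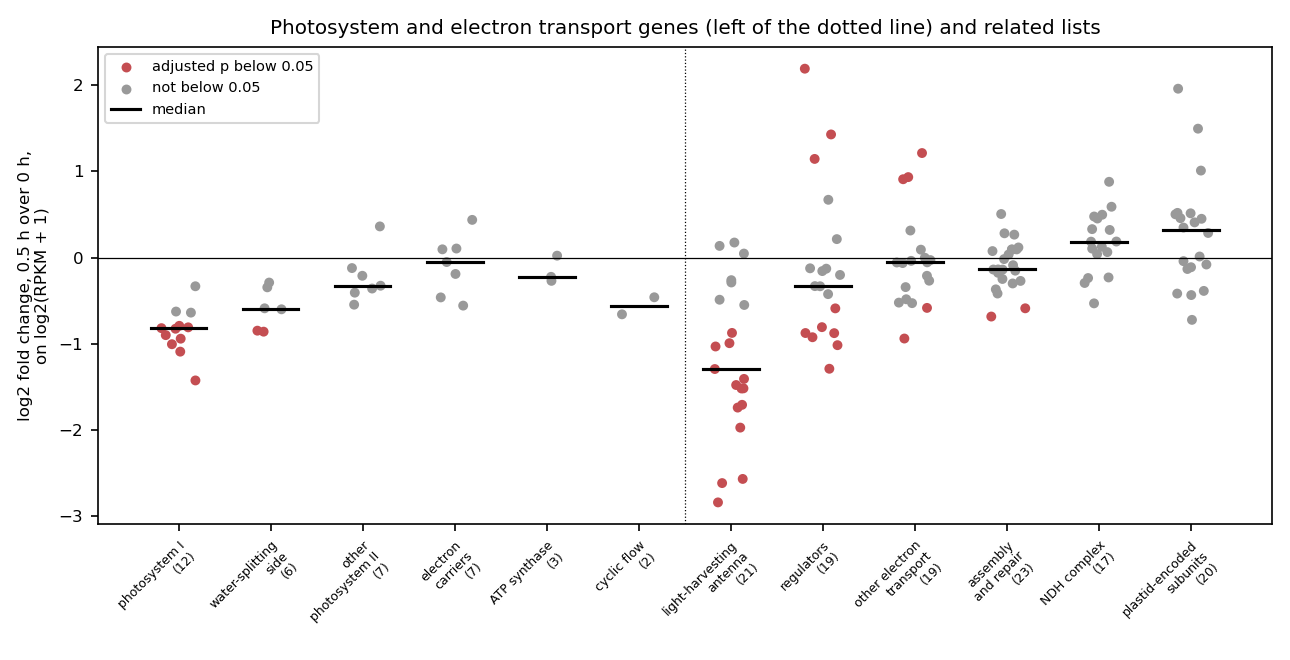
Log2 fold change (0.5 h over 0 h, on log2(RPKM + 1)) of every tested gene of the 6 roles, left of the dotted line, and of 6 related lists, with the number of genes under each name, the median as a bar and called genes in red. Photosystem I and the antenna sit lowest, with medians of -0.82 and -1.29. Chloroplast genes held only 0.0569 to 0.379% of the reads of a library, and whether their RPKM follows plastid transcript levels was not tested. The plastid-encoded subunits have the highest median, 0.32, with none called and overlapping groups in 14 of the 20 tested. Their summed level was 126 and 443 RPKM at 0.5 h, against 155 and 139 RPKM at 0 h. The high value was that of the library rich in chloroplast reads.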

How the data were processed

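RNA of whole seedlings was sequenced from 4 libraries, 2 per time, prepared, per the labels' protocols, with Illumina's TruSeq RNA kit; groups and replicate numbers come from the sample titles. No header names the unit of the deposited values: they were taken as RPKM from the steps described below, and as scaled by the authors with TMM from the table's name. The table also gives gene lengths and, for each gene, the largest multi-mapped fraction, as the deposited column's name puts it. TAIR10 and SAMtools are named per the submitters' processing notes. Aligner, counter and use of strand were not given in the sources used here. 11 of the 37 genes overlap another annotated gene, and the overlapping genes in the table had 0.201 to 62.6 RPKM, so shared reads cannot be told apart.

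The value times the gene length lies on steps of 1 read, with 0.5 read added. Reads so recovered were whole, within 0.05 read, for at least 99.992% of genes without multi-mapped reads and 47.5 to 51.7% of the others. Replicates were not repeats of 1 library: the chi-square of their reads averaged 15.35 a gene for 0.5 h and 16.49 for 0 h.

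Genes averaging 1 RPKM or more were fitted with limma 3.58.1 (R 4.3.3, intensity trend, group alone) on log2(RPKM + 1), a scale that understates changes of low genes. The test is two-sided with Benjamini-Hochberg adjustment and a threshold of 0.05. Standard errors rest on 2 residual and 4.824 prior degrees of freedom. The procedure was tested on simulated data without a library that stands apart. The simulated spread beyond counting error was also the same for every gene. That test thus cannot speak to the effect of such a library, or of spread that differs between genes. Python 3.11.15, pandas 2.3.3 and matplotlib 3.10.9 were used for tables and plots. Genes were matched by locus identifier, with their usual symbols; gene starts and sequence come from RefSeq's TAIR10.1. Members and lists were chosen with earlier results of these data known. All 37 members are named. Of each other list the 2 tested genes with the smallest p are named, and of each tissue marker list the 2 with the highest mean. Alternatives were other pseudocounts, minimums, scalings, variance models, limma-voom on recovered reads, leaving out multi-mapped or organelle genes, a replicate block and leaving out each library.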

Additional observations from a re-analysis of the deposited data

How the results depend on the processing

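Over 16 alternatives, 523 of 589 fold changes of single genes kept their direction and their side of the threshold, 39 lost the call, 16 gained it and 11 changed sign. The count called lower was 9 to 16 under 11 of the 12 alternatives that kept all libraries. It was 0 without a minimum on the mean RPKM, where 2 genes of the whole table were called against 2133; the cause was not tested. Leaving out 1 library, and so with fewer samples, 740 to 1918 genes of the table were called, 1 to 9 of the 37 were called lower, and the median of the 37 ran from -0.65 to -0.36. The lone library of a time is then assumed to vary like the others. That median was -0.35 with quantile normalization, -0.50 without genes over 0.05 of multi-mapped reads and -0.36 with nuclear genes rescaled by nuclear totals. That rescaling also turned 1211 higher and 922 lower calls into 1677 and 703.

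No sign change concerned a called gene. PSBX (0.0042) and PETC (0.11) changed sign with quantile normalization, and PETC (0.054) with nuclear rescaling. Leaving out 1 library, values of both signs were seen for PSBS (-0.51 to 0.27), PETC (-0.25 to 0.15), PETE2 (-0.095 to 0.30), FD2 (-0.067 to 0.26) and ATPD (-0.19 to 0.23).

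The replicate numbers mark no shared batch in the labels, and same-numbered libraries did not deviate together (correlation of -0.078 over 18039 genes). With a replicate block 1961 genes were called, and 11 of the 37 lower and 0 higher, with a median of -0.46.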
